A study of Mus musculus with 18 samples.

Results

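The primary granule protease genes are described here in haematopoietic progenitors of lupus-prone and control mice. The 6 genes were taken by symbol from both expression tables, namely Mpo, Elane, Prtn3, Ctsg, Ms4a3 and Hp, out of 20639 genes measured in either table. Only Elane (neutrophil elastase), Prtn3 (proteinase 3) and Ctsg (cathepsin G) encode serine proteases. Mpo encodes myeloperoxidase, the haem enzyme stored in the same granules, Ms4a3 a membrane protein expressed in granulocyte-monocyte progenitors, and Hp haptoglobin, the haemoglobin-binding protein that later neutrophil precursors also make. Messenger RNA was sequenced in 18 samples, each a library from sorted bone marrow cells of female mice, in 6 groups of 3. LSK (Lin−Sca-1+c-Kit+ cells, the compartment of stem and multipotent progenitor cells) were profiled in all 4 kinds of mice, and common myeloid progenitors (CMPs) in F1-P and F1-L only. F1-P and F1-L were NZB/W F1 mice, a hybrid strain that develops lupus spontaneously, aged 12 weeks before disease (F1-P) and 28 to 36 weeks with proteinuria (F1-L). B6-Y (12 weeks) and B6-O (28 to 36 weeks) were C57BL/6 controls without lupus. Age and disease cannot be told apart between F1-L and F1-P, nor strain and lupus susceptibility between NZB/W F1 and C57BL/6. The labels do not say whether replicates were separate mice, pools or one batch, so p-values measure only the spread between these samples.

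Primary (azurophil) granules are the storage organelles that a neutrophil precursor builds at the promyelocyte stage. Their proteases are made as inactive precursors, activated by dipeptidyl peptidase 1 (Ctsc), packed onto the serglycin proteoglycan (Srgn) and kept in check by cytosolic serpins. Transcription of these genes is shut off before the secondary and tertiary granules form, so primary granule messages mark a precursor that is earlier than the one marked by Ltf, Camp or Ngp. The transcription factors C/EBPα (Cebpa), PU.1 (Spi1), RUNX1-CBFβ and MYB are known to act on their promoters, and C/EBPε (Cebpe) on the later granule genes. LSK and CMPs both precede the promyelocyte stage, yet messages of the primary granule genes were already present in every library of both.

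All 6 genes were placed on the GRCm38 assembly. Elane (chr10:79886247-79888215, plus strand) and Prtn3 (chr10:79874476-79883174, plus strand) are neighbours whose starts lie 11771 bases apart. Mpo is at chr11:87793581-87804413 (plus strand), Ctsg at chr14:56099881-56102574 (minus strand), Ms4a3 at chr19:11629496-11640851 (minus strand) and Hp at chr8:109575128-109579172 (minus strand). The Prtn3 gene overlaps the protein-coding gene Plppr3 and Mpo overlaps the antisense gene Gm11505, in both cases on the opposite strand. The library kit does not mark strand, so reads in these overlaps cannot be told apart.

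Upstream sequence is shown for the 4 genes whose window before the RefSeq start lies mainly outside annotated exons, because these genes had similar patterns across the CMP samples. Of the 6 genes, 5 had an entry in the RefSeq promoter table (GRCm38.p6), and Hp did not. The 250 bases before the start were searched on both strands for TTNCNNAA (C/EBP), GAGGAA (PU.1), TGTGGT (RUNX) and TAACNG or CAACNG (MYB). Capitals mark the matches that lie wholly in the printed stretch, read 5′ to 3′ on the strand of the gene. The stretch printed for Elane (chr10:79886062-79886246) ends 66 bases before the start, and that for Prtn3 (chr10:79879417-79879613) ends 54 bases before it, where annotated exons begin. The RefSeq start of Prtn3 lies inside the longer GENCODE gene. The Ctsg (chr14:56102575-56102824) and Ms4a3 (chr19:11640852-11641101) windows are complete and lie on the minus strand.
Elane: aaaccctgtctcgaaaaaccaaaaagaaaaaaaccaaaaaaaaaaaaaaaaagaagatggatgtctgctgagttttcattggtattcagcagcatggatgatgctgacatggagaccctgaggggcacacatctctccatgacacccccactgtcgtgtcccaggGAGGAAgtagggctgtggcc
Prtn3: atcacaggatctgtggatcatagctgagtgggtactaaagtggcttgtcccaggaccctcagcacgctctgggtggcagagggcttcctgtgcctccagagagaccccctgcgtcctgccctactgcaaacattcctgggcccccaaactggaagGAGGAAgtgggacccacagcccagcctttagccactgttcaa
Ctsg: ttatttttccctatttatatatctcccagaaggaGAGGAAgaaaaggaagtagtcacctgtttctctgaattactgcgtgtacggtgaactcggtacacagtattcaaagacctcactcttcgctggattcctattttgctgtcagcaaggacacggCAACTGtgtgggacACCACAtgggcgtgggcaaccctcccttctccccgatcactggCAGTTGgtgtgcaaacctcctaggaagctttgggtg
Ms4a3: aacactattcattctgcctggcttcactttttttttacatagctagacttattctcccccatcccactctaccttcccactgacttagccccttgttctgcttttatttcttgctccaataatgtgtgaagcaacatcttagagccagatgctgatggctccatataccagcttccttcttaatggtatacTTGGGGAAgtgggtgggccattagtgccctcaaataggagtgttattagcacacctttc

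The PU.1 letters stood in the windows of Elane (bases 85 to 80 before the start), Prtn3 (95 to 90), Ctsg (216 to 211) and Mpo (2 matches), and in 23.3% of all 32851 promoters. The MYB letters stood in the same 4 windows and in 43.1% of all promoters, and both together stood in 9.68%. The MYB matches of Elane (bases 51 to 46 and 20 to 15) and Prtn3 (56 to 51) reach past the printed stretches and are not marked there. In Ctsg the MYB letters occurred at bases 93 to 88 and 36 to 31 before the start, on either side of a RUNX match at 79 to 74 (RUNX letters in 14.0% of promoters). The window of Ms4a3 held none of these and a single C/EBP match at bases 59 to 52 (in 36.8% of promoters). These matches are letters in a window and were not tested for binding.

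The deposited values were CPM, reads per gene relative to a library size that the authors had scaled, with the LSK and CMP tables scaled separately. Each LSK library held between 23772252 and 28493747 counted reads, and each CMP library between 20001328 and 24761060. Immunoglobulin genes took 16.8% to 36.6% of the reads of the NZB/W F1 LSK libraries, against 0.301% to 4.76% in C57BL/6 and 0.0152% to 0.255% in CMPs. The markers of the sort were present, with Kit at 257 to 657 CPM in LSK and 416 to 668 in CMPs. Ly6a, which encodes Sca-1, was at 35.5 to 879 CPM in LSK and 1.14 to 6.70 in CMPs, although the methods print the CMP gate with Sca-1 positive. Some libraries stood apart in transcripts of mature neutrophils, which the sort gated against. The summed CPM of 8 mature neutrophil markers (S100a8, S100a9, Retnlg, Cxcr2, Ly6g, Mmp9, Il1b and Csf3r) was 6287 in B6-O replicate 3 against 631 and 1113 in the other B6-O. It was 2953 in B6-Y replicate 2 against 402 and 456 in the other B6-Y. In F1-L LSK it was 6020, 2399 and 1126 (replicates 1, 2 and 3), in F1-P LSK 217, 353 and 815, and in CMPs 3553 and 4595 in F1-P replicates 2 and 3 against 71.2 to 307 in the other 4. The markers were above 0 in every library, the surface marker Ly6g included.

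All 6 genes were detected in every library. Together they held 0.0254% to 0.202% of the reads in LSK and 0.140% to 0.557% in CMPs. Per kilobase of annotated exon, the scale on which levels of different genes are compared here, Mpo was the highest of the 6 in 15 of 18 libraries and Ms4a3 the lowest in 14. The length took all annotated exons of a gene together (3424 bases for Mpo, 1732 for Prtn3), and no other length was tried. In B6-Y LSK the log2 ratio of Mpo to Prtn3 was only 0.19 to 0.55. Mpo ranked 124 to 590 among 19770 genes in LSK and 14 to 90 among 18421 genes in CMPs by CPM per kilobase. The 3 exceptions to its lead were the B6-O LSK libraries, in which Prtn3 was above Mpo. Hp was the lowest of the 6 in the 4 CMP libraries with few neutrophil transcripts.

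**Figure D1:**
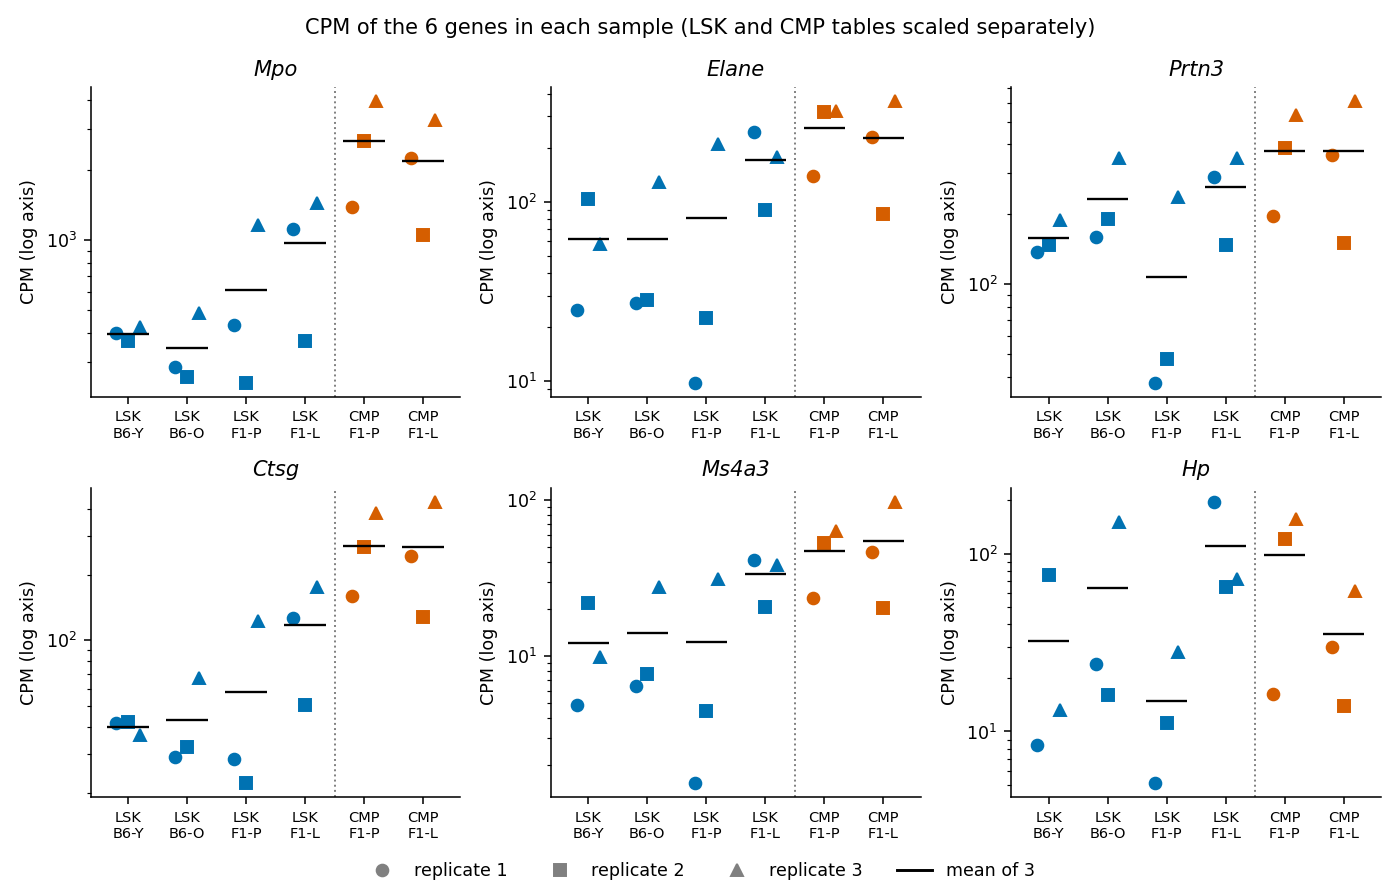
CPM of the 6 genes (log axis) in each of the 18 samples by group, with a symbol for each replicate number, a horizontal line at the mean of 3 and a dotted line between the separately scaled LSK (blue) and CMP (orange) tables. F1-L and F1-P LSK spread widely within each group, and only Hp in F1-L LSK (65.2 to 195 CPM) sits wholly above F1-P LSK (5.11 to 28.03 CPM).

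The disease comparison in LSK asked whether the primary granule genes were higher in stem and multipotent progenitors of diseased than of prediseased mice. Mean levels of all 6 were higher in F1-L than in F1-P LSK, by 1.69-fold (Mpo) to 7.62-fold (Hp) on the log2(CPM + 1) scale, but none was called, a call being a limma adjusted p no higher than 0.05 together with a fold above 1.5. The comparison called 0.0279% of all genes tested.

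Myeloperoxidase was abundant and uneven. Mpo stood at 1115, 369 and 1447 CPM in F1-L (replicates 1, 2 and 3; mean 977 ± 552 SD, n=3) and at 432, 245 and 1160 CPM in F1-P (612 ± 484 SD, n=3). The highest F1-P library exceeded the middle F1-L library, and the groups overlapped. The log2 difference was 0.76 ± 0.68 (SE), with an adjusted p of 0.723 in limma.

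The 3 proteases showed the same high libraries. Elane was at 246, 90.4 and 178 CPM in F1-L and at 9.81, 22.6 and 210 CPM in F1-P. Prtn3 was at 290, 148 and 349 CPM in F1-L and at 37.7, 47.4 and 237 CPM in F1-P. Ctsg was at 126, 50.7 and 176 CPM in F1-L and at 28.6, 22.1 and 123 CPM in F1-P. For each protease F1-P replicate 3 lay above F1-L replicate 2 while the other F1-P libraries lay below all F1-L libraries. F1-P replicate 3 also stood apart in erythroid transcripts, with a summed CPM of 6 erythroid markers of 1290 against 95.6 and 73.6 in the other F1-P and at most 319 in any other LSK library, and their part in its levels was not tested. The log2 differences were 2.08 ± 1.02 for Elane, 1.70 ± 0.69 for Prtn3 and 1.26 ± 0.70 for Ctsg (SE; limma adjusted p of 0.463, 0.369 and 0.516).

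Ms4a3 and Hp complete the 6 genes. Ms4a3 was at 41.4, 20.5 and 38.3 CPM in F1-L and at 1.52, 4.43 and 31.2 CPM in F1-P, where F1-P replicate 1 held 37 reads of the gene. Hp was at 195, 65.2 and 72.05 CPM in F1-L and at 5.11, 11.1 and 28.03 CPM in F1-P, with no overlap. The log2 differences were 2.11 ± 0.86 for Ms4a3 (adjusted p of 0.370) and 2.93 ± 0.63 for Hp (adjusted p of 0.173).

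Across the 6 genes limma called 0, 3 (Prtn3, Ms4a3 and Hp) had an unadjusted p below 0.05 and a higher level (8.58% of all genes tested), and 1 had groups that did not overlap with F1-L higher (10.4% of all genes). edgeR's quasi-likelihood test on whole reads also called 0, whereas its likelihood ratio test and DESeq2 each called Hp alone (adjusted p of 0.0023 and 0.013). Over all genes, the likelihood ratio test called 657 and DESeq2 734. The median log2 difference of the 6 was 1.89 against -0.01 over all genes tested. The neutrophil marker sum was higher in every F1-L LSK library (1126 to 6020) than in every F1-P library (217 to 815), with 8 of 8 markers higher. Without F1-L replicates 1 and 2, the 2 libraries highest in these markers, the log2 differences of the 6 were 1.54 to 2.502, but F1-L was then 1 sample, replicate 3, the highest LSK library for Mpo, Prtn3 and Ctsg, and adjusted p was 0.766 or above in limma. The part of neutrophil transcripts in the results was not tested. Leaving out single libraries moved the log2 differences to between 0.249 (without F1-P replicate 2) and 1.369 (without F1-P replicate 3) for Mpo. Without F1-P replicate 1 they were 1.175 for Elane, 1.204 for Prtn3, 1.316 for Ms4a3 and 2.391 for Hp, and without F1-P replicate 3 they were 3.317, 2.516, 3.152 and 3.515. Ctsg ran from 0.797 (without F1-P replicate 2) to 2.009 (without F1-P replicate 3). None of these fits called any of the 6 genes. On whole reads edgeR gave 1.085 for Elane. In bulk samples a change in the number of cells that express these genes and a change in RNA per cell cannot be told apart.

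**Figure D2:**
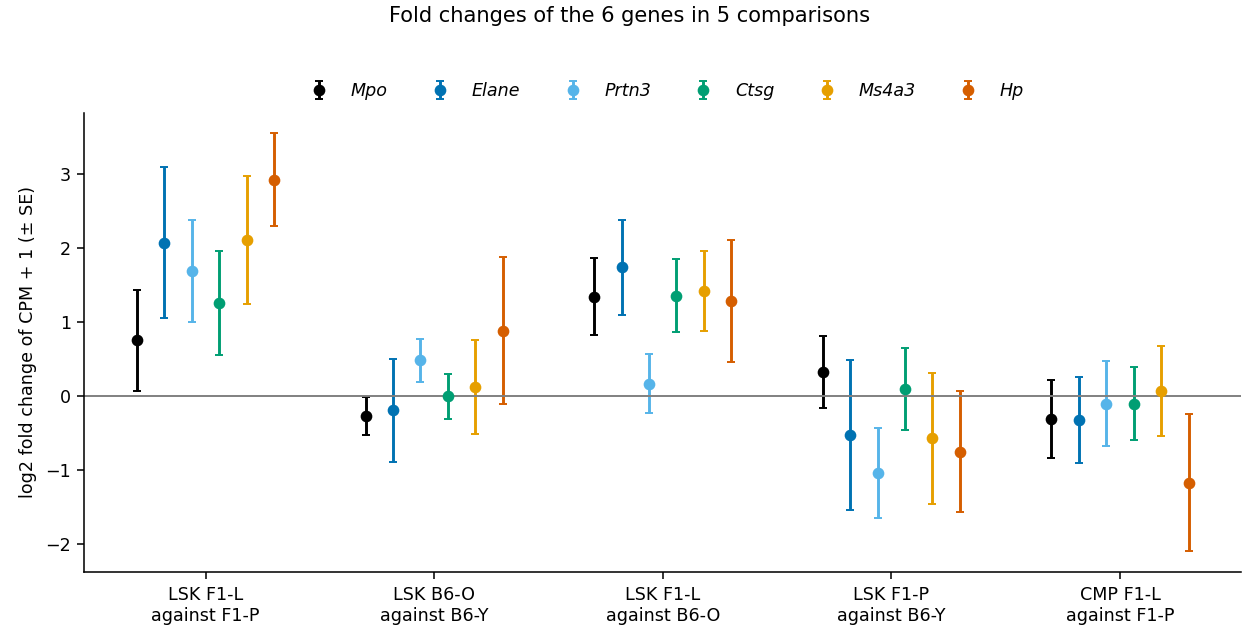
Log2 fold change of CPM + 1 (vertical axis) for each of the 6 genes in 5 comparisons (horizontal axis), with error bars of 1 SE from limma and 3 samples per group. All 6 points lie above 0 for F1-L against F1-P in LSK, while for the same contrast in CMPs they lie between -1.17 and 0.07.

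The same contrast was made in CMPs, which the study places between multipotent progenitors and granulocyte-macrophage progenitors. No difference between F1-L and F1-P was detected for any of the 6 genes, and all differences but that of Hp were smaller than their standard errors. Mpo stood at 2242, 1052 and 3274 CPM in F1-L and at 1394, 2665 and 3943 CPM in F1-P (means 2189 ± 1112 and 2667 ± 1274 SD, n=3 each). The log2 difference was -0.31 ± 0.53 (SE, adjusted p of 0.849). Elane was at 230, 85.1 and 362 CPM in F1-L and at 139, 314 and 321 CPM in F1-P. Prtn3 was at 358, 150 and 612 CPM in F1-L and at 197, 386 and 536 CPM in F1-P. In each of these genes F1-L replicate 2 was the lowest library and F1-P replicate 1 the next lowest. Ctsg was at 243, 127 and 430 CPM in F1-L and at 160, 269 and 383 CPM in F1-P. Ms4a3 was at 46.6, 20.3 and 97.3 CPM in F1-L and at 23.7, 53.5 and 63.4 CPM in F1-P. The same libraries were lowest in both of these genes. Log2 differences of these 4 genes were between -0.33 and 0.07.

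Hp had its low values in the same CMP libraries but its high values in others. It was at 30.0, 13.9 and 61.4 CPM in F1-L and at 16.2, 121 and 156 CPM in F1-P. Only F1-P replicates 2 and 3 exceeded 100 CPM, the same libraries whose neutrophil marker sums were 3553 and 4595, and the groups overlapped. The log2 difference was -1.17 ± 0.93 (SE, adjusted p of 0.699). Without these 2 libraries F1-P was 1 sample, replicate 1, already the lowest F1-P library for all 6 genes. The Hp difference was then 0.84, and those of the other 5 genes were between 0.47 and 0.91, with adjusted p between 0.878 and 0.903.

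Of the 6 genes, limma called 0 in CMPs against 0.00774% of all genes tested. None had an unadjusted p below 0.05 (9.8% of all genes) or groups that did not overlap (16% of all genes). The tests on whole reads in edgeR (quasi-likelihood, likelihood ratio) and DESeq2 each called 0 as well. CMP F1-L replicate 2 and F1-P replicate 1, the libraries lowest in the primary granule genes, had the highest summed CPM of 6 erythroid markers (4195 and 3632 against 1828 to 2990 in the other 4). In them Klf1, a transcription factor of erythroid progenitors, was at 317 and 326 CPM, against 125 to 221. The part of erythroid progenitors in the levels was not tested.

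The difference between LSK and CMPs in the F1-L against F1-P contrast was then tested itself, on differences within each table, so that the separate scaling cancels. The contrast was more positive in LSK than in CMPs for all 6 genes, by 1.07 (Mpo) to 4.10 (Hp) on the log2 scale, but limma called 0 of 6 and 0% of all genes tested. Hp was the only gene of the 6 with an unadjusted p below 0.05 (5.81% of all genes were higher at this level), with a difference of 4.10 ± 1.22 (SE) and an adjusted p of 0.347. edgeR's likelihood ratio test and DESeq2 called Hp (adjusted p of 0.0099 and 0.025), among 464 and 438 genes called, and edgeR's quasi-likelihood test did not. Without CMP F1-P replicate 1 limma called Hp as well (5.10, adjusted p of 0.015), as 1 of 531 genes called. Without CMP F1-P replicates 2 and 3, the neutrophil-high libraries, CMP F1-P was 1 sample, its lowest in Hp, and the Hp difference was 2.09 with an adjusted p of 0.994.

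Age alone was compared in C57BL/6 LSK. No difference between B6-O and B6-Y was detected for the 6 genes. Mpo was at 285, 258 and 488 CPM in B6-O and at 399, 370 and 424 CPM in B6-Y, a log2 difference of -0.27 ± 0.26 (SE, adjusted p of 0.843). Prtn3 was at 159, 190 and 348 CPM in B6-O and at 138, 148 and 188 CPM in B6-Y (0.48 ± 0.30, adjusted p of 0.841). Ctsg was at 29.3, 32.4 and 67.3 CPM in B6-O and at 41.6, 42.3 and 36.7 CPM in B6-Y (a log2 difference of -0.0036). In B6-O, replicate 3 was the highest library for each of these genes, while the B6-Y libraries lay closer together. Elane was at 27.1, 28.4 and 129 CPM in B6-O and at 24.9, 104 and 57.8 CPM in B6-Y. Ms4a3 was at 6.38, 7.71 and 27.9 CPM in B6-O and at 4.83, 21.8 and 9.87 CPM in B6-Y. Hp was at 23.9, 16.1 and 151 CPM in B6-O and at 8.43, 75.6 and 13.2 CPM in B6-Y. For these 3 genes B6-O replicate 3 and B6-Y replicate 2, the neutrophil-high libraries, were the highest of their groups, and the part of neutrophil transcripts was not tested. The log2 differences of Elane, Ms4a3 and Hp were -0.19, 0.12 and 0.89, with SEs of 0.64 to 0.99. Without B6-O replicate 3 and B6-Y replicate 2 they were -0.44, 0.01 and 0.84. limma and the other 3 tests called 0 of 6 (limma called 0% of all genes), none had an unadjusted p below 0.05 (6.62% of all genes) and none had groups that did not overlap (11.3% of all genes).

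Whether the age contrast differed between strains was tested as the interaction of strain and age in the 12 LSK samples. The contrast of older against younger mice was more positive in NZB/W F1 than in C57BL/6 for each gene, by 1.02 (Mpo) to 2.27 (Elane) on the log2 scale with SEs of 0.80 to 1.37. Leaving out single libraries gave 0.515 (without F1-P replicate 2) to 1.635 (without F1-P replicate 3) for Mpo, 1.365 (without F1-P replicate 1) to 3.508 (without F1-P replicate 3) for Elane and 1.136 (without B6-Y replicate 2) to 3.003 (without B6-O replicate 3) for Hp. With all samples the 6 adjusted p-values were 0.976, so the difference could not be told from the spread. Of all genes tested 0% were called, and none of the 6 had an unadjusted p below 0.05 (3.92% of all genes). edgeR's and DESeq2's tests of the interaction also called 0 of 6.

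The strain comparisons set NZB/W F1 beside age-matched C57BL/6 LSK. They share their samples with the contrasts above and are not independent of them, and the effect of mapping NZB/W F1 reads to a C57BL/6-based genome was not tested. Between F1-L and B6-O, 5 of the 6 genes had log2 differences of 1.29 to 1.74, whereas Prtn3 differed by 0.17 ± 0.40 (SE, adjusted p of 0.810). Elane differed by 1.74 ± 0.64 (adjusted p of 0.130), Ms4a3 by 1.42 ± 0.54 (0.140), Ctsg by 1.36 ± 0.50 (0.129), Mpo by 1.35 ± 0.52 (0.148) and Hp by 1.29 ± 0.83 (0.349). limma called 0 of 6, against 11.6% of all genes tested. An unadjusted p below 0.05 and a higher level in F1-L were found for 4 (Mpo, Elane, Ctsg and Ms4a3; 14.8% of all genes), and none had groups that did not overlap (17.5% of all genes were higher without overlap). For Mpo, Elane, Ctsg and Ms4a3 the overlap came from F1-L replicate 2 lying below B6-O replicate 3.

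This comparison turned on single libraries. Without the neutrophil-high B6-O replicate 3, limma called Elane (2.47, adjusted p of 0.0084), Ms4a3 (2.04, adjusted p of 0.0076) and Hp (2.25, adjusted p of 0.024), all higher in F1-L. This fit called 2285 of all genes. The library left out was the highest B6-O library for each of these genes. F1-L kept its neutrophil-high libraries, with marker sums of 1126 to 6020 against 631 and 1113 in the B6-O left. The groups compared thus also differed in this sum, and its part was not tested. Without F1-L replicate 2 limma called Mpo (1.94, adjusted p of 0.036), as 1 of 594 genes called. edgeR's likelihood ratio test and DESeq2 called Mpo and Ctsg with all samples, among 2193 and 2279 genes called. edgeR's quasi-likelihood test called 0 of the 6 and 1552 of all genes.

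Between F1-P and B6-Y the differences had both signs. Mpo was 0.32 ± 0.49 higher and Prtn3 1.04 ± 0.61 lower in F1-P on the log2 scale (SE, adjusted p of 0.705 and 0.291). In 2 of 3 F1-P libraries Prtn3 was at 37.7 and 47.4 CPM, below all B6-Y libraries (138 to 188 CPM), and the remaining F1-P library was at 237 CPM. The other 4 genes had log2 differences from -0.75 (Hp) to 0.10 (Ctsg). limma called 0 of 6 against 16.2% of all genes, none had an unadjusted p below 0.05 (31.3% of all genes) and none had groups that did not overlap (35.5% of all genes). edgeR's and DESeq2's tests called 0 of 6. Without F1-P replicate 3 limma called Prtn3 lower (-1.86, adjusted p of 0.0029), as 1 of 1150 genes called.

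The balance of Mpo and the 3 proteases differed from library to library in LSK and spanned a narrower range in CMPs, while that of Hp to the others was wide in both. In CMPs Mpo made up 43.8% to 50.3% of the summed CPM per kilobase of the 6 genes, and in LSK 22.0% to 66.6%. The log2 ratio of Mpo to Elane per kilobase spanned 1.29 to 1.83 in CMPs and 0.03 to 3.66 in LSK. The ratio of Mpo to Prtn3 spanned 1.44 to 1.89 in CMPs and -0.54 to 2.54 in LSK. The ratio of Mpo to Hp spanned 3.37 to 5.34 in CMPs and 0.60 to 5.31 in LSK, and that of Mpo to Ms4a3 4.21 to 5.10 and 3.23 to 7.28. That of Mpo to Ctsg, the steadiest in LSK, spanned 1.2 to 1.63 in CMPs and 1.13 to 2.19 in LSK. In the F1-P LSK library with the highest ratio of Mpo to Elane, replicate 1, Elane stood at 9.81 CPM beside 432 CPM of Mpo.

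**Figure D3:**
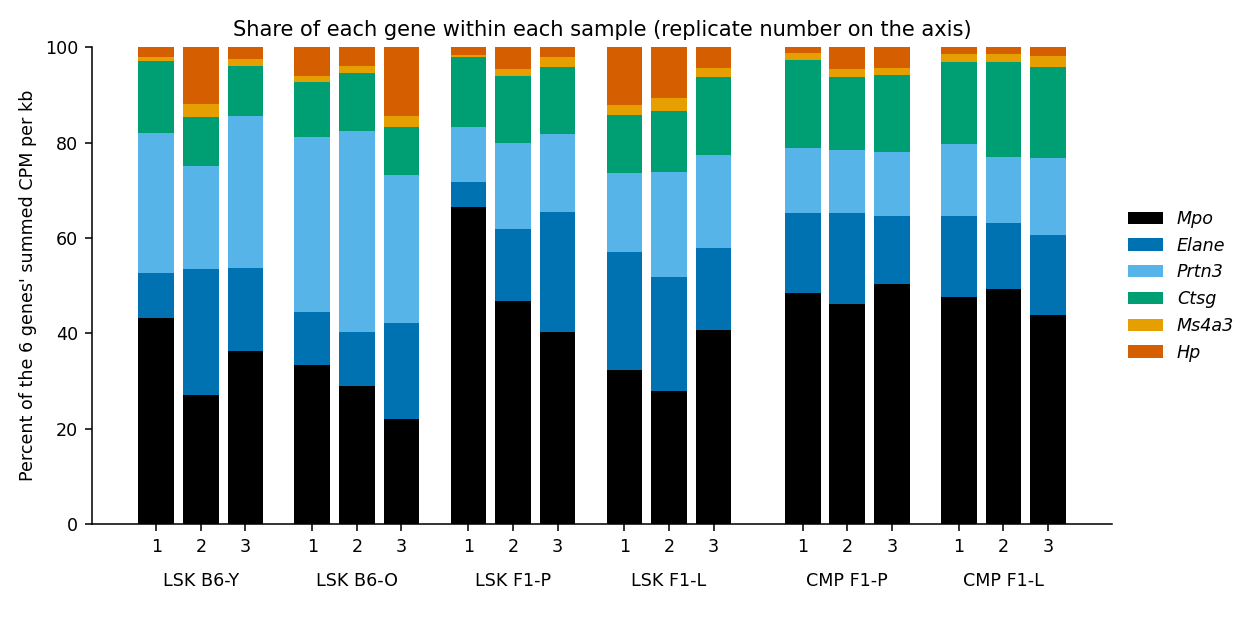
Percent of the summed CPM per kilobase of the 6 genes taken by each gene (vertical axis) in each of the 18 samples, grouped by cell type and group with the replicate number on the horizontal axis. Mpo (black, at the base) takes 43.8% to 50.3% of each CMP bar and 22.0% to 66.6% of each LSK bar.

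The place of Prtn3 in the balance differed between the 2 strains at a given age, but the strains overlapped across ages. The log2 ratio of Mpo to Prtn3 per kilobase was -0.14, -0.54 and -0.49 in B6-O LSK and 0.55, 0.34 and 0.19 in B6-Y LSK. It was 0.96, 0.34 and 1.07 in F1-L LSK and 2.54, 1.38 and 1.31 in F1-P LSK. Both NZB/W F1 groups lay above the C57BL/6 group of the same age without overlap, a pattern singled out after its values were seen and given with no test. Plppr3, whose gene overlaps Prtn3 on the opposite strand, was called lower in F1-L than in B6-O (log2 difference of -0.98 ± 0.20 SE) and in F1-P than in B6-Y (-1.14 ± 0.15). The share of Prtn3 reads that falls in the overlap was not analysed here.

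Likeness between genes was measured as the root mean square difference of their centred log2(CPM + 1) profiles, in which 0 is an identical pattern. Over the 12 LSK samples Elane was closest to Ms4a3 (0.247) and Mpo to Ctsg (0.281), while these pairs differed from each other more (Mpo to Elane 0.961). Elane and its chromosomal neighbour Prtn3 were 0.849 apart in LSK. Hp was closer to the neutrophil marker sum (0.392) than to any other of the 6 genes, of which Ms4a3 was the nearest (0.713). It was also closer to the sum of the secondary and tertiary granule genes without Chil3 (0.426). Over the 6 CMP samples the 5 genes other than Hp were 0.121 to 0.276 apart and Hp was 0.754 to 0.863 from each of them. These are descriptions over few samples that share library preparation and scaling.

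**Figure D4:**
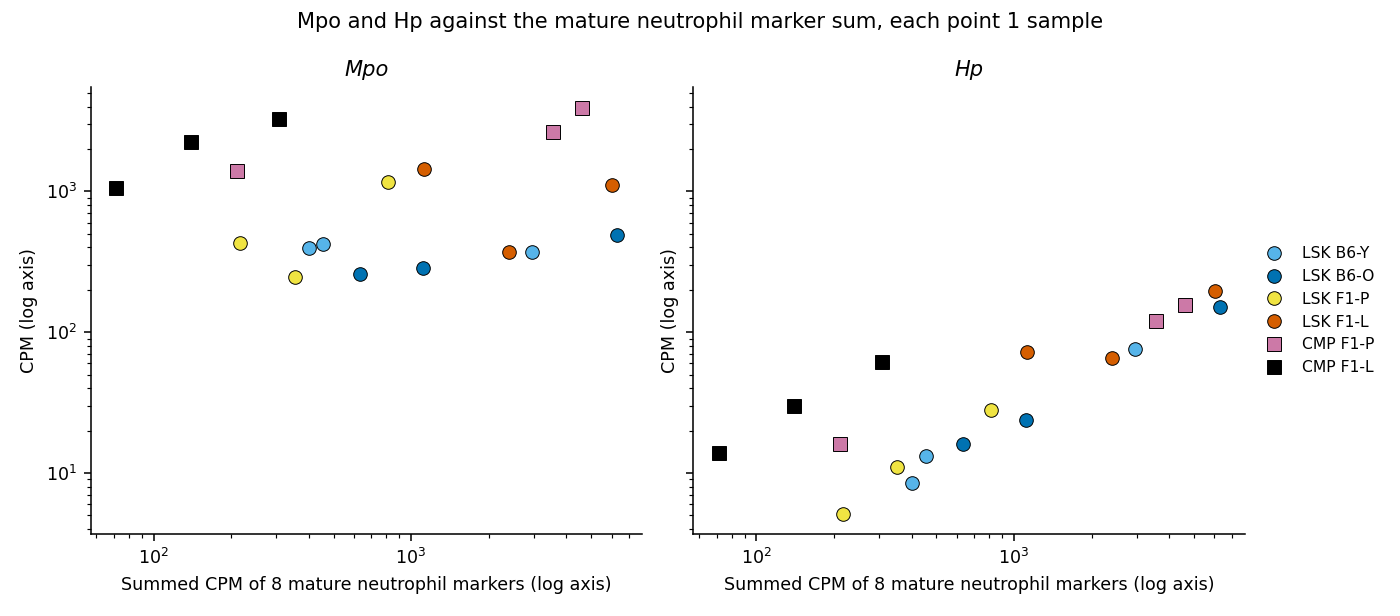
CPM (vertical log axis) of Mpo (left) and Hp (right) against the summed CPM of 8 mature neutrophil markers (horizontal log axis), each point 1 of 18 samples, circles for LSK and squares for CMPs. In LSK, Hp runs from 5.11 CPM at the lowest marker sum (217) to 195 CPM at a sum of 6020, whereas Mpo is at 1160 and 1447 CPM at sums of 815 and 1126 and at 370 CPM at 2953.

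The genes whose pattern lay closest to the mean profile of the 6, among 11331 genes with a mean of at least 5 CPM in LSK, were Anxa3 (0.466), Dram1 (0.480), F13a1 (0.485), Gsr (0.496) and Igsf6 (0.506). F13a1 encodes a coagulation factor subunit of the monocyte lineage and Gsr glutathione reductase. Among 10337 such genes in CMPs they were Gpc1 (0.061), Ly6c2 (0.102), Ccr2 (0.165), Pkm (0.171) and Atp8b4 (0.179). Ly6c2 and Ccr2 encode surface proteins of monocytes and their precursors, and Pkm the glycolytic enzyme pyruvate kinase. Ly6c2 ran from 27.2 to 108 CPM and Ccr2 from 22.2 to 94.1 CPM across the CMP samples.

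Protein-coding genes that start within 100 kb of the 6 were compared with them. Elane and Prtn3 each had 14 such neighbours, of which 10 were tested in F1-L against F1-P LSK, with log2 differences of -0.15 to 0.38 beside 2.08 and 1.70 for Elane and Prtn3 themselves. These neighbours include Prss57, the gene of a further granule serine protease, at 0.19. The other genes had 4 (Mpo), 1 (Ctsg), 4 (Ms4a3) and 4 (Hp) tested neighbours, and none was called in this contrast, nor any neighbour of the 6 genes in CMPs or between B6-O and B6-Y. In F1-L against B6-O, limma called Arid3a higher near Elane and Prtn3, Plppr3 lower, and Ms4a6d, Oosp1 and Oosp2 higher near Ms4a3. The share called over all genes was 11.6%. In F1-P against B6-Y it called Plppr3 lower and Oosp1 and Oosp2 higher, with 16.2% of all genes called.

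Genes that process, store and accompany the proteases formed a list of 11, of which 10 were tested and Bpi was absent from both tables. None was called in any of the 7 comparisons. In F1-L against F1-P LSK 7 were higher and 3 lower, with a median log2 difference of 0.18 against -0.01 over all genes, and 4 had an unadjusted p below 0.05, all higher. These genes, like the others named below without a call, were picked out after their values were seen. They were Ctsc, the activating peptidase (0.38 ± 0.13 SE, adjusted p of 0.290), Cd63, a granule membrane protein (1.27 ± 0.24, 0.172), Lyz2, lysozyme (2.41 ± 0.56, 0.188), and Fcnb, ficolin-B (2.504 ± 0.78, 0.262). Srgn, the proteoglycan of the granule matrix, differed by 0.18 ± 0.14 and Prss57 by 0.19 ± 0.27. In CMPs Lyz2 was at 63.1, 987 and 1295 CPM in F1-P and at 64.9, 34.8 and 93.4 CPM in F1-L, so that the same 2 neutrophil-high F1-P libraries stood apart. The median of the list in CMPs was -0.17 against 0.04 over all genes.

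Transcription factors known to act on these genes or to end their expression were a list of 8, all tested. Cebpe, described above as a factor of the later granule genes, is among them. In F1-L against F1-P LSK none was called, and 3 were higher with an unadjusted p below 0.05. Cebpa was at 91.8, 99.6 and 64.1 CPM in F1-L and at 21.7, 18.9 and 35.3 CPM in F1-P, without overlap. Its log2 difference was 1.74 ± 0.26 (SE), with an adjusted p of 0.172. Spi1 (0.75 ± 0.19, adjusted p of 0.198) and Cebpe (2.53 ± 0.69, adjusted p of 0.210) were also higher without overlap (10.4% of all genes were), while Myb (0.10), Runx1 (0.18) and Cbfb (0.03) differed little. Of the 8, 6 were higher and 2 lower, namely Gfi1 and Ets1, with a lowest log2 difference of -0.33. The median of the 8 was 0.14. In F1-P against B6-Y, where 16.2% of all genes were called, limma called 3 of 8, Cebpa lower (-0.99 ± 0.25, adjusted p of 0.031), Spi1 lower (-0.93 ± 0.13, adjusted p of 0.0026) and Ets1 higher (0.78 ± 0.20, adjusted p of 0.036), and in none of the other 6 comparisons was a member called. In CMPs Cebpa was at 52.5, 24.7 and 75.6 CPM in F1-L and at 24.7, 45.1 and 83.2 CPM in F1-P, lowest in the same 2 libraries as the primary granule genes, with a log2 difference of 0.03 ± 0.54 (adjusted p of 0.988).

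A further list held 6 inhibitors, either of the serine proteases or of the protease that activates them. Of these, 5 were tested and A2m was absent from both tables. None was called between F1-L and F1-P in LSK (median 0.15) or CMPs (median -0.46). The serpin Serpinb1a, a cytosolic inhibitor of elastase, proteinase 3 and cathepsin G, was the 1 of 5 called in F1-L against B6-O (11.6% of all genes), where it was lower (-0.95 ± 0.23 SE, adjusted p of 0.041). Its levels were 114, 78.2 and 60.9 CPM in F1-L and 142, 157 and 179 CPM in B6-O, without overlap. In F1-P against B6-Y it differed by -0.995 ± 0.29 and missed the threshold (adjusted p of 0.0504). Slpi, a secreted inhibitor of elastase, was called higher in F1-P than in B6-Y (2.12 ± 0.44, adjusted p of 0.015), as was Cst3, cystatin C (1.51 ± 0.29, adjusted p of 0.010). These were 2 of the 5 tested genes of this mixed list, beside 16.2% of all genes called there. In the remaining comparisons no inhibitor was called.

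The secondary and tertiary granule genes, a list of 10, marked later neutrophil precursors. In F1-L against F1-P LSK 9 were tested and all 9 were higher without overlap between the groups (10.4% of all genes), 8 with an unadjusted p below 0.05, but none was called. The median log2 difference was 3.12 against -0.01 over all genes. Ltf, lactoferrin, was at 1937, 768 and 238 CPM in F1-L and at 46.9, 83.5 and 169 CPM in F1-P. Its log2 difference was 3.01 ± 0.78 (SE, adjusted p of 0.199). In CMPs the same 9 were all lower in F1-L, with a median of -3.98 against 0.04, 7 with an unadjusted p below 0.05 (5.25% of all genes were lower at this level) and 2 without overlap (6.57% of all genes), and none was called. There Ltf was at 1015 and 1424 CPM in F1-P replicates 2 and 3, at 50.7 CPM in replicate 1 and at 9.14 to 62.2 CPM in F1-L. Of this list, limma called Cybb, a subunit of the phagocyte oxidase, higher and Chil3 lower in F1-L than in B6-O, and Chil3 lower in F1-P than in B6-Y, with nothing called in the other 5 comparisons. That is 2 of 10 beside 11.6% of all genes, and 1 of 10 beside 16.2%. Chil3, a chitinase-like protein, was at 27.6 to 380 CPM in C57BL/6 LSK and at 0 to 0.239 CPM in NZB/W F1 LSK. Mmp9, a granule gelatinase, stands in both this list and the neutrophil markers.

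**Figure D5:**
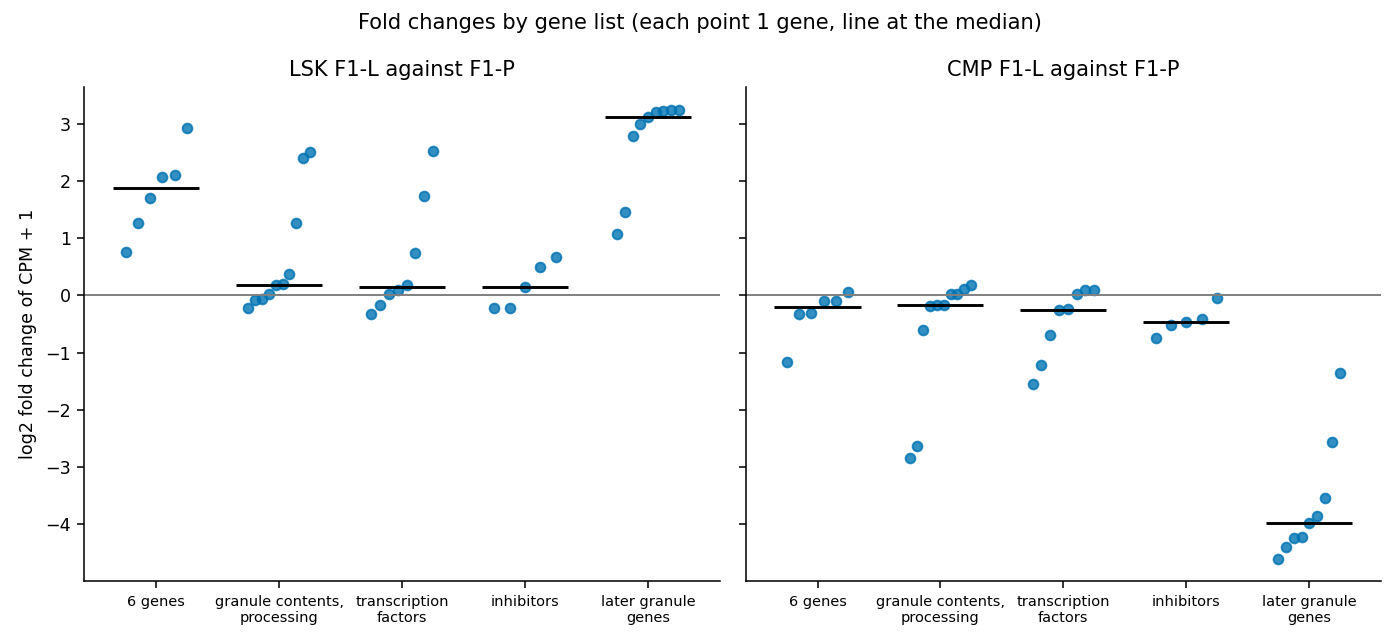
Log2 fold change of CPM + 1 (vertical axis) in F1-L against F1-P for LSK (left) and CMPs (right), each point 1 tested gene of the list named on the horizontal axis and each line the list median. The later granule genes have medians of 3.12 in LSK and -3.98 in CMPs, and the 6 genes, among them Hp, 1.89 and -0.20.

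Markers of other cells that the sorted samples could hold were also followed between F1-L and F1-P. In LSK 8 of 8 neutrophil, 5 of 6 monocyte, 7 of 7 eosinophil, basophil and mast cell, 4 of 6 erythroid and 3 of 3 megakaryocyte markers tested had higher means in F1-L, while 6 of 6 B lineage, 5 of 5 plasma cell and 3 of 3 T cell markers had lower means. Of the stem and progenitor markers 6 of 8 had higher means in F1-L. So did 5 of 5 genes of the gated-out markers, namely Itgam, Ly6g, Ptprc, Fcgr3 and Fcgr2b. For Ptprc the sort gated against its B220 form only, and the gene was at 305 to 967 CPM across the LSK libraries. The summed CPM of 5 plasma cell markers was 9370 to 12440 in F1-L and 14240 to 36660 in F1-P, against 240 to 2455 in C57BL/6. In CMPs 8 of 8 neutrophil, 6 of 6 monocyte, 6 of 6 B lineage, 4 of 4 plasma cell and 5 of 5 gated-out markers had lower means in F1-L, as did 3 of 6 erythroid, 3 of 7 eosinophil, basophil and mast cell, 3 of 8 stem and progenitor and 0 of 3 megakaryocyte markers. None of these markers was called in either cell type. Their part in the levels of the primary granule genes was not tested.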

How the data were processed

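Messenger RNA of 18 sorted bone marrow samples was sequenced by the authors as single-end reads from a kit that does not mark strand. Per the labels and the study's methods, reads were aligned with STAR 2.6 to mm10 (GRCm38), counted per gene with HTSeq and scaled with edgeR. The deposited signal values are CPM of a library size that the authors scaled, separately for LSK (19780 genes) and CMPs (18428 genes). Whole reads were recovered from them for 100.0% of values (tolerance 0.01). The planned test assumed plain CPM and was kept. Symbols matched 19770 and 18421 genes.

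Genes with at least 1 CPM in at least 3 samples were tested with limma 3.58.1 (trended eBayes, R 4.3.3) on log2(CPM + 1), with Benjamini-Hochberg adjustment over all genes tested. The 7 comparisons share samples. Fold changes on this scale understate those of low genes. Scripts were tested on simulated data. Alternatives were other pseudocounts, filters and scalings, a replicate block, robust eBayes, one fit of all LSK samples, edgeR 4.0.16 (quasi-likelihood and likelihood ratio) and DESeq2 1.42.0 on whole reads, and leaving out each replicate. Fits without neutrophil-high libraries were added after seeing the data.

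The 6 genes and the lists were chosen with earlier results of these data known. Named besides the 6 were called list members (at most 4 per list and comparison), the 5 genes nearest the mean profile in each table and called protein-coding genes within 100 kb, with exceptions stated where they occur.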

Additional observations from a re-analysis of the deposited data

Results flagged for a closer look

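Of the later granule genes, Mmp8 and Mmp9 moved in opposite directions in the 2 cell types, with every F1-L sample above every F1-P sample in LSK and below every F1-P sample in CMPs. They were picked by this lack of overlap. Over all genes tested, 10.4% were higher without overlap in LSK and 6.57% lower without overlap in CMPs. In LSK all 9 later granule genes tested were higher without overlap. The log2 difference of F1-L against F1-P was 3.12 in LSK and -4.21 in CMPs for Mmp8, so that the contrast was 7.34 ± 1.54 (SE) higher in LSK. For Mmp9 it was 2.78 and -4.60, a difference of 7.38 ± 1.58. The test of the difference itself in limma gave an adjusted p of 0.292 for both genes over all genes tested, which misses the threshold. The neutrophil marker sum, which contains Mmp9, was higher in every F1-L LSK library (1126 to 6020 against 217 to 815) and highest in CMP F1-P replicates 2 and 3 (3553 and 4595), and its part in the difference was not tested.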

How the results depend on the processing

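Each contrast was refitted under every alternative, giving 858 log2 fold changes of the 6 genes, of which 799 kept direction and side of the threshold, 18 newly passed it, 41 changed sign (26 of them with a replicate left out) and 0 lost a call. The number of the 6 genes called changed as follows. In F1-L against F1-P LSK 1 gene (Hp) was called by the likelihood ratio test of edgeR, and 1 (Hp) by DESeq2. In F1-L against B6-O the replicate block called 1 (Ctsg), the likelihood ratio test 2 and DESeq2 2 (Mpo and Ctsg), and the fit without the neutrophil-high C57BL/6 libraries 3 (Elane, Ms4a3 and Hp), with 0 to 3 on leaving out each replicate. The fit without neutrophil-high C57BL/6 libraries dropped B6-O replicate 3 here and kept every F1-L library. In F1-P against B6-Y leaving out a replicate called 0 to 1 (Prtn3, without F1-P replicate 3). For the difference between LSK and CMPs DESeq2 called 1 (Hp) and so did the likelihood ratio test, and leaving out a replicate 0 to 1 (Hp, without CMP F1-P replicate 1). The causes were not tested.

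Sign changes concerned differences that were not called. Between B6-O and B6-Y, Ctsg was 0.074 in both edgeR tests and 0.051 in DESeq2. Between F1-P and B6-Y, Elane was 0.386 in both edgeR tests and 0.405 in DESeq2, Ms4a3 was 0.036 and 0.055, and Hp was 0.154 without the neutrophil-high C57BL/6 libraries. Without the 2 neutrophil-high CMP F1-P libraries, which leaves F1-P as 1 sample that is assumed to vary like the other groups, Mpo was 0.503, Elane 0.465, Prtn3 0.7, Ctsg 0.564 and Hp 0.836 in CMPs. Leaving out each replicate in turn gave, between B6-O and B6-Y, -0.916 to 0.286 for Elane, -0.371 to 0.215 for Ctsg, -0.496 to 0.625 for Ms4a3 and -0.073 to 1.794 for Hp. Between F1-L and B6-O it gave -0.081 to 0.536 for Prtn3. Between F1-P and B6-Y it gave -0.288 to 0.833 for Mpo, -1.766 to 0.377 for Elane, -0.654 to 0.558 for Ctsg, -1.61 to 0.226 for Ms4a3 and -1.357 to 0.154 for Hp. In CMPs it gave -0.713 to 0.147 for Mpo, -0.781 to 0.257 for Elane, -0.567 to 0.443 for Prtn3, -0.53 to 0.343 for Ctsg and -0.473 to 0.629 for Ms4a3.

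Counts over all genes moved more. In F1-L against F1-P LSK, limma's 4 calls became 657 in the likelihood ratio test, 734 in DESeq2, 26 with all LSK samples in one fit, 2 with median-of-ratios scaling, 0 with the replicate block, 1 without the 2 neutrophil-high F1-L libraries (F1-L then 1 sample) and 0 to 25 on leaving out a replicate. Between B6-O and B6-Y, 0 became 114, 207, 13 (one fit), 3 (robust eBayes), 1 (scaling without immunoglobulin genes), 57 without the neutrophil-high libraries and 48 without B6-O replicate 3. In F1-L against B6-O, 1667 became 978 with a mean of at least 5 CPM, 18 without the 2 neutrophil-high F1-L libraries (F1-L then 1 sample), 2193 in the likelihood ratio test, 2279 in DESeq2, 2050 in one fit, and 448 (without F1-L replicate 3) to 2285 (without B6-O replicate 3) on leaving out a replicate, and in F1-P against B6-Y 2331 became 927 to 2229 on leaving out a replicate (927 without F1-P replicate 2) and 2816 in DESeq2. In CMPs, 1 became 308 in the likelihood ratio test, 351 in DESeq2, 434 without F1-P replicate 1 and 0 with the block, with a mean of at least 5 CPM and without the 2 neutrophil-high F1-P libraries. For the interaction, 0 became 10 and 29, and for the difference between LSK and CMPs 464, 438, 531 without CMP F1-P replicate 1 and 2 without the 2 neutrophil-high CMP F1-P libraries.

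Samples share replicate numbers across groups, and the labels do not say whether the numbers pair them. In no comparison did every same-numbered pair of its groups have correlated deviations above 0.1 (for F1-L and F1-P LSK they were -0.015, -0.043 and 0.026). For the difference between LSK and CMPs, F1-P replicates had correlations above 0.1 in all 3 same-numbered pairs (0.214, 0.163 and 0.136, each highest with its own number), a hint from the data that they are not independent, whereas F1-L replicates did not (0.002, 0.139 and -0.106). That difference was fitted without pairing, and with the block Hp was 4.1 (adjusted p of 0.474). With the replicate block the only change among the 6 genes was the Ctsg call in F1-L against B6-O (1.359, adjusted p of 0.039). That fit called 1380 of all genes. The fewest reads behind any value of the 6 genes were 37 (Ms4a3, F1-P LSK replicate 1).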
